A study of Mus musculus with 16 samples.

Results

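The series was made to study thyroxine in cells of a mouse model of craniosynostosis, the early fusion of skull sutures. Cells of the coronal suture that were heterozygous for Twist1 were set against wild-type cells after 3 days in culture, with 4 of the 16 arrays of the series in each genotype. All mice were C57BL6, and the cells came from 2 litters that held both genotypes. Male and female cells of each genotype were kept apart, which gave 4 cultures: Twist1+/- male, Twist1+/- female, wild-type male and wild-type female. Each culture was grown in DMEM with 10% serum and then kept in 3 wells with thyroxine at 1 µmol per liter and 3 wells of control medium, and 1 array was run for each medium. The other 8 arrays hold the same cultures and media at 7 days. RNA was measured on an Affymetrix whole-transcript array, 100 ng of total RNA per array. How many mice stand behind a culture, their age and the structure of the Twist1 mutant allele are unknown here. Each genotype is thus represented by 2 cultures of opposite sex. The comparison took both media together, with medium as a factor, and 13453 genes were tested, each by its brightest probe set. Values are log2 levels, differences are Twist1+/- minus wild type on the log2 scale, and of each pair of values given for a culture the first is the thyroxine array and the second the control array.

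The coronal suture joins the frontal bones to the parietal bones, and its mesenchyme supplies osteoblasts to both bone fronts while keeping them separate. Twist1 encodes a helix-loop-helix transcription factor made in that mesenchyme. It pairs with E proteins such as Tcf12 and binds E-box motifs in DNA, and it restrains osteoblast differentiation. Mice and people with 1 working copy of the gene develop early fusion of the coronal suture. FGF receptors, BMP and WNT signals, ephrins and the homeobox factors of the Msx and Alx families act in the same tissue.

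The labelled sexes and cell type were first set against marker genes. Xist, the RNA of the inactive X chromosome, measured 3.06 to 3.57 on the male arrays and 5.31 to 6.39 on the female arrays. Uty, a Y-linked gene, measured 5.77 to 6.47 on the male arrays and 2.46 to 2.82 on the female arrays. Mesenchymal transcripts were abundant on all 8 arrays, with Col1a1, the main collagen of bone and skin, at 11.79 to 12.93. Transcripts of macrophages were also present on all arrays, and Cd68, a lysosomal protein of these cells, measured 9.05 to 11.34. The wild-type male culture stood apart from the other 3. On the first principal component, which held 54.8% of the variance, its arrays lay at 36.48 and 34.99, and the other 6 arrays lay between -16.77 and -8.43. Results are therefore also given by sex and without that culture.

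Twist1 itself did not differ detectably between the genotypes. It measured 7.53 and 6.94 in the Twist1+/- male culture and 6.97 and 7.34 in the Twist1+/- female culture, against 6.54 and 6.35 in the wild-type male culture and 7.46 and 7.70 in the wild-type female culture. The mean was 7.20 ± 0.29 in Twist1+/- cells and 7.01 ± 0.67 in wild-type cells (SD, n = 4 arrays each), a difference of 0.18 with a standard error of 0.34 and an unadjusted p of 0.6 (limma). The sexes ran opposite ways: the difference was 0.79 between the male cultures and -0.43 between the female cultures. The female arrays put Twist1+/- cells below wild-type cells in both media, and the male arrays put them above in both. Which part of the gene the mutant allele lacks is not known here, so the probe set's level does not test the genotype labels.

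Twist2, the paralogue of Twist1 that acts in dermis and bone precursors, was higher on every Twist1+/- array than on any wild-type array at 3 days. It measured 4.24 and 4.16 in the Twist1+/- male culture and 4.68 and 4.90 in the Twist1+/- female culture, against 4.14 and 3.55 in the wild-type male culture and 4.03 and 3.57 in the wild-type female culture. These levels are close to the lower limit of the genes tested, and the lowest Twist1+/- array lay only 0.02 above the highest wild-type array. The difference was 0.67 (SE 0.24, unadjusted p 0.0208, limma, adjusted p 1.0). The partner gene Tcf12 measured 8.13 and 8.20 in the Twist1+/- male culture and 8.02 and 7.98 in the Twist1+/- female culture, against 7.77 and 7.80 in the wild-type male culture and 8.08 and 8.21 in the wild-type female culture. Its difference was 0.38 between male and -0.15 between female cultures. Fgfr2, an FGF receptor whose activating mutations also fuse the coronal suture in people, measured 6.77 and 7.02 in the Twist1+/- male culture and 7.57 and 7.59 in the Twist1+/- female culture, against 6.81 and 6.61 in the wild-type male culture and 7.17 and 7.24 in the wild-type female culture, and the ranges of the genotypes overlapped.

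Across all genes, none passed the test for genotype. Of 13453 genes 0 (0.0%) had an adjusted p under 0.05, the smallest adjusted p was 1.0, and 277 (2.06%) had an unadjusted p under 0.05, 136 of them higher (1.01%) and 141 lower (1.05%) in Twist1+/- cells. With 2 cultures against 2, an exact permutation test could not go below p = 0.333 for any single value. The median standard error of a difference was 0.16. The 4 Twist1+/- arrays lay above all 4 wild-type arrays for 245 genes (1.82%) and below all 4 for 148 (1.1%), which makes 393 genes without overlap (2.92%). The mean difference was above 0 for 7232 genes (53.8%). A wider set kept its sign in both sexes and both media: 939 genes were higher (6.98%) and 911 lower (6.77%) in all 4 comparisons. More genes ran in opposite directions in the sexes than kept 1 sign. In both media 1854 genes (13.8%) were higher in the male and lower in the female comparison, and 1343 (9.98%) were lower in the male and higher in the female comparison.

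The distances between cultures show where these differences lie. The Twist1+/- male and female cultures differed by a root mean square of 0.22 over all genes tested. Each of them lay about as close to the wild-type female culture, at 0.20 for the Twist1+/- male and 0.22 for the Twist1+/- female culture. The wild-type male culture was 0.41 from the Twist1+/- male culture, 0.42 from the Twist1+/- female culture and 0.46 from the wild-type female culture. Of the genes tested, 461 differed by at least 1 between the Twist1+/- and wild-type male cultures and 49 between the female cultures, while the wild-type male and female cultures had 614 such genes. Across genes the male and female differences had a Pearson r of -0.25 and a Spearman correlation of -0.20, and 42.5% of genes had the same sign in both. This is a description across genes, and genes are not independent replicates. The differences had an SD of 0.41 over genes in males and 0.22 in females.

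**Figure D1:**
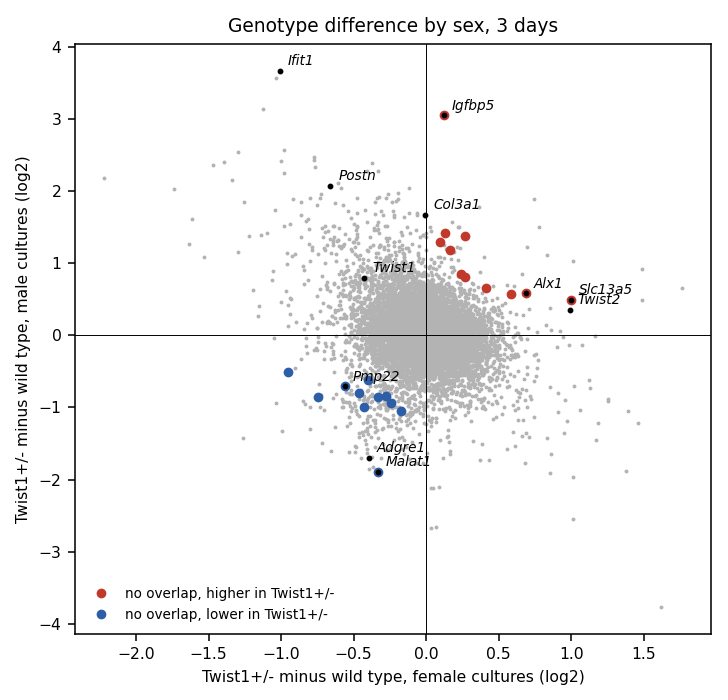
Each grey point is 1 of the 13453 genes tested, with the Twist1+/- minus wild-type difference of the female cultures on the x axis and of the male cultures on the y axis (log2, mean of both media). Red and blue points are genes whose 4 Twist1+/- arrays did not overlap with the 4 wild-type arrays and that were named by the rule, and points in the upper left quadrant, such as Ifit1 and Postn, were higher in the male and lower in the female comparison.

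Among the genes without overlap, 11 higher and 11 lower ones differed by at least 0.5 and had a mean level of at least 5. They are given here as values, because none passed the test.

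Slc13a5, the sodium-coupled transporter that brings citrate into cells, had the smallest p of the higher genes. It measured 8.63 and 8.62 in the Twist1+/- male culture and 8.89 and 8.95 in the Twist1+/- female culture, against 7.94 and 8.34 in the wild-type male culture and 7.96 and 7.88 in the wild-type female culture. The difference was 0.74 (SE 0.15, unadjusted p 0.000789, limma), at 0.49 in males and 1.0 in females. The wild-type female arrays and the wild-type male thyroxine array were near 7.9, and every Twist1+/- array was above 8.6. Alx1, a homeobox factor needed for the frontal and facial skeleton, measured 7.68 and 7.41 in the Twist1+/- male culture and 8.08 and 7.91 in the Twist1+/- female culture, against 6.95 and 6.98 in the wild-type male culture and 7.36 and 7.26 in the wild-type female culture. It differed by 0.63 (SE 0.17, p 0.00453), by 0.58 in males and 0.69 in females, and the female culture was the higher of the pair in each genotype. Pop1, a protein subunit of the RNA-processing enzymes RNase P and RNase MRP, measured 6.62 and 6.54 in the Twist1+/- male culture and 6.27 and 6.52 in the Twist1+/- female culture, against 5.86 and 6.16 in the wild-type male culture and 5.69 and 5.93 in the wild-type female culture. Its difference was much the same in the sexes, at 0.57 in males and 0.59 in females. Barx1, a homeobox factor of jaw mesenchyme, measured 6.06 and 5.69 in the Twist1+/- male culture and 5.70 and 5.87 in the Twist1+/- female culture, against 5.43 and 5.0 in the wild-type male culture and 5.15 and 5.59 in the wild-type female culture, and differed by 0.66 in males and 0.42 in females.

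For the other 7 higher genes the male difference was the larger by at least 0.5. Igfbp5, a secreted protein that binds insulin-like growth factors, measured 9.31 and 9.67 in the Twist1+/- male culture and 9.33 and 9.32 in the Twist1+/- female culture, against 6.12 and 6.77 in the wild-type male culture and 9.19 and 9.21 in the wild-type female culture. The wild-type female culture lay just under the Twist1+/- cultures, and the wild-type male culture was far below all others, with differences of 3.05 in males and 0.13 in females. Creb3l1, a transcription factor of the endoplasmic reticulum that drives type I collagen in osteoblasts, measured 9.37 and 9.32 in the Twist1+/- male culture and 9.42 and 9.37 in the Twist1+/- female culture, against 8.56 and 8.53 in the wild-type male culture and 9.17 and 9.08 in the wild-type female culture. Its differences were 0.80 in males and 0.27 in females. Avil, which encodes the actin-binding protein advillin, differed by 1.38 in males and 0.27 in females. Arhgap28, a GTPase-activating protein, differed by 1.18 and 0.17 in the same order. Cth, an enzyme that makes cysteine, differed by 1.29 in males and 0.10 in females, and Apol9b of the apolipoprotein L family by 1.42 in males and 0.13 in females. Lrp4, a receptor that binds the WNT inhibitor sclerostin, differed by 0.85 in males and 0.24 in females.

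Of the lower genes, Pmp22, a membrane protein of myelin that fibroblasts also express, had the smallest p. It measured 8.84 and 8.26 in the Twist1+/- male culture and 8.41 and 8.53 in the Twist1+/- female culture, against 9.28 and 9.24 in the wild-type male culture and 9.15 and 8.91 in the wild-type female culture. The difference was -0.64 (SE 0.16, unadjusted p 0.00351, limma), at -0.71 in males and -0.56 in females. Gsap, a protein that raises gamma-secretase activity, measured 5.81 and 5.49 in the Twist1+/- male culture and 4.90 and 5.32 in the Twist1+/- female culture, against 6.28 and 6.03 in the wild-type male culture and 6.13 and 5.99 in the wild-type female culture, and differed by -0.51 in males and -0.95 in females. Pgap6, an enzyme that cuts GPI anchors, measured 4.97 and 5.04 in the Twist1+/- male culture and 4.39 and 4.45 in the Twist1+/- female culture, against 5.82 and 5.90 in the wild-type male culture and 5.21 and 5.12 in the wild-type female culture. Its differences of -0.86 in males and -0.75 in females were alike, although the male culture was the higher of the pair in each genotype. Olfr1269, an olfactory receptor gene, differed by -0.62 in males and -0.40 in females.

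For most of the other 7 lower genes the wild-type male arrays were the farthest from the Twist1+/- ones. Malat1, an abundant nuclear long noncoding RNA, measured 8.75 and 8.73 in the Twist1+/- male culture and 8.72 and 8.75 in the Twist1+/- female culture, against 10.83 and 10.43 in the wild-type male culture and 9.03 and 9.11 in the wild-type female culture. The Twist1+/- arrays spanned only 0.03, and most of the difference of -1.11 came from the wild-type male culture, with -1.89 in males and -0.34 in females. Ddx5, an RNA helicase, differed by -1.0 in males and -0.43 in females. Cx3cr1, the fractalkine receptor of monocytes and macrophages, measured 7.39 and 7.02 in the Twist1+/- male culture and 7.15 and 7.25 in the Twist1+/- female culture, against 7.93 and 8.16 in the wild-type male culture and 7.50 and 7.45 in the wild-type female culture. Rgs10, a regulator of G protein signalling that is abundant in microglia and macrophages, differed by -0.85 in males and -0.33 in females. Rab3il1, an exchange factor for Rab GTPases, differed by -0.80 in males and -0.46 in females, and the transporter-like gene Mfsd6 by -1.05 in males and -0.18 in females. Pdgfb, the B chain of platelet-derived growth factor, differed by -0.94 in males and -0.24 in females.

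**Figure D2:**
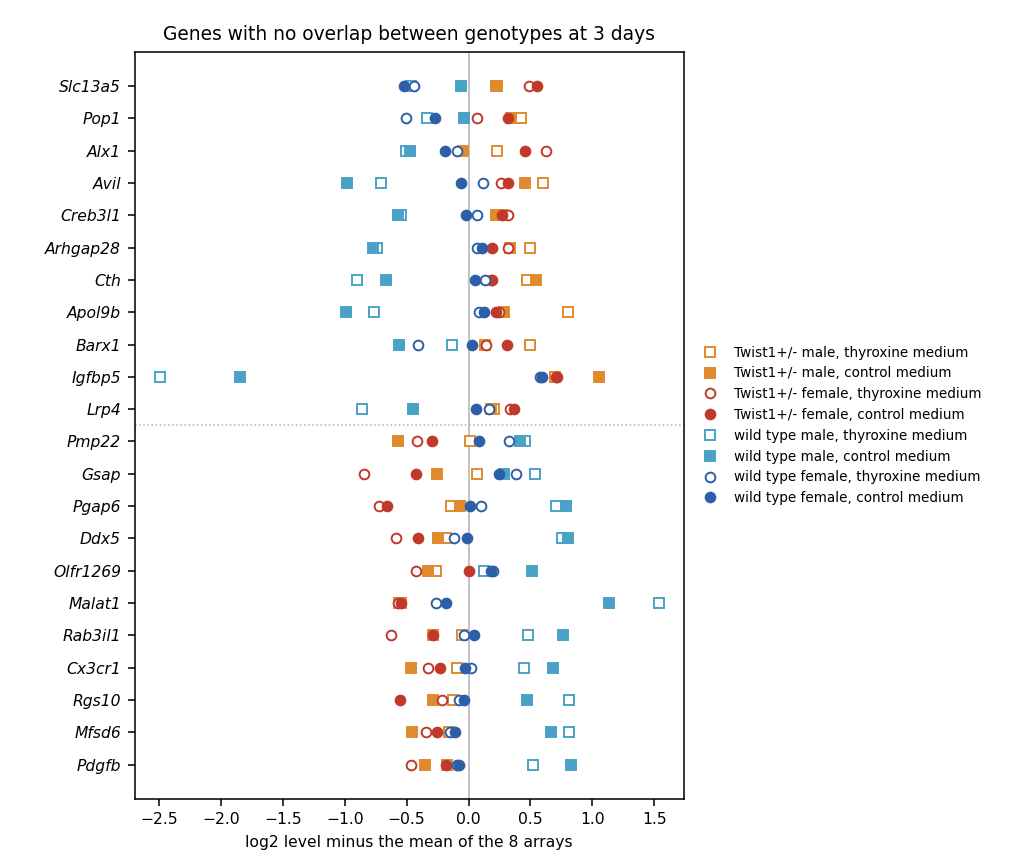
The x axis gives the log2 level of an array minus the mean of the 8 arrays at 3 days, and each line holds 1 of the 22 genes named for not overlapping, with 11 higher genes above the dotted line and 11 lower genes below it. Colours and shapes are cultures, open symbols are thyroxine arrays and filled symbols control arrays. The wild-type male arrays (light blue squares) lie farthest out for genes such as Igfbp5 and Malat1, and Slc13a5, Pop1, Alx1, Pmp22 and Gsap are spread more evenly.

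The start regions of these genes were read for E-boxes, CANNTG, the motif that Twist1 dimers bind, and for CATATG, 1 form of it described for Twist1. Both read the same on either strand, and CATATG is a case of CANNTG. RefSeq windows on GRCm38.p6 from 250 bases before to 50 after the start were at hand for 6 of the 11 higher and 10 of the 11 lower genes, among them neither Alx1 nor Pop1. Where a gene had several windows, only the first listed was read. Pmp22 had 4 windows listed, Slc13a5 had 2 and Apol9b had 2, so the counts do not cover every start of a gene. An E-box was found in 2 of the 6 and in 6 of the 10, CATATG in 0 of either, while 72.3% of all 32544 mouse windows held CANNTG and 3.87% held CATATG. A match is a description of the letters and no evidence of binding. The windows of the gene with the smallest p in each direction are printed beside 1 window per direction that holds the motif, with each E-box in capitals. The windows read for Slc13a5 (chr11:72267112-72267411, minus strand) and Pmp22 (chr11:63128732-63129031, plus strand) have no E-box. The window read for Gsap (chr5:21176029-21176328, plus strand) has 1 and that for Apol9b (chr15:77728822-77729121, plus strand) has 5.
Slc13a5: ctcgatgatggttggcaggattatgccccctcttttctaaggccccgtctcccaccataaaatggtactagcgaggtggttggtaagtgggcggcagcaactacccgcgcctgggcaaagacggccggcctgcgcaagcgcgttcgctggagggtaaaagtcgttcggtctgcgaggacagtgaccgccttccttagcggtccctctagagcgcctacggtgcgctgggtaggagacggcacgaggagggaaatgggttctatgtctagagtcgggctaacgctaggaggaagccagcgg
Apol9b: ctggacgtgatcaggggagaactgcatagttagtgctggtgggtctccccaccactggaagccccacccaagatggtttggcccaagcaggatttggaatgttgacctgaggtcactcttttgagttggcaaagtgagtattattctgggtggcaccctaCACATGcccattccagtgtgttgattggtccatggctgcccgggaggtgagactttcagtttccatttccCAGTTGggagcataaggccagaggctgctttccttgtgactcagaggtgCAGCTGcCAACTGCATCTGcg
Pmp22: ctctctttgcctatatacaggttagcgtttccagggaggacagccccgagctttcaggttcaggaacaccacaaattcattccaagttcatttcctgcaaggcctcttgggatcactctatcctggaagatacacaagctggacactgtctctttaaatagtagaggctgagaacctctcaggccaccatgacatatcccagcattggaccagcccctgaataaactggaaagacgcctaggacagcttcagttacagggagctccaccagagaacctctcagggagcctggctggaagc
Gsap: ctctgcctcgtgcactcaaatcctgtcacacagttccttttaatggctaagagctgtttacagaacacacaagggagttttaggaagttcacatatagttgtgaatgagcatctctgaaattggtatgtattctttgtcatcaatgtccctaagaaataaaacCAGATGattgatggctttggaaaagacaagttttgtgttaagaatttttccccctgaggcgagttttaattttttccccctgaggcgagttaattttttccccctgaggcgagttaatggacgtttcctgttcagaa

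A few genes with large differences lay below the level of 5 set for the rule or were of a class it left out, and they were chosen after their values were seen. Lepr, the leptin receptor, which marks mesenchymal stromal cells of bone, measured 5.41 and 5.15 in the Twist1+/- male culture and 5.90 and 5.46 in the Twist1+/- female culture, against 4.11 and 4.38 in the wild-type male culture and 4.71 and 4.62 in the wild-type female culture. Its difference of 1.03 (SE 0.22, unadjusted p 0.00114, limma) was 1.04 in males and 1.02 in females. Ang2, a mouse ribonuclease of the angiogenin family, measured 3.78 and 3.0 in the Twist1+/- male culture and 4.27 and 3.86 in the Twist1+/- female culture, against 4.80 and 4.82 in the wild-type male culture and 5.30 and 5.35 in the wild-type female culture. The Twist1+/- arrays of Ang2 lay around 3.90, the lowest mean tested, so the size of its difference is not given. Lepr differed by 0.82 without the wild-type male culture.

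Whether the genotype difference depended on sex was tested after these values had been seen, with genotype, sex, their product and medium in 1 fit. Since each genotype and sex is a single culture, sex and culture cannot be told apart, and the p-values measure only the spread between the arrays of a culture, which may be technical. The male and female differences differed for 1569 of 13453 genes at an adjusted p under 0.05 (11.7%, limma): 901 had the higher difference in males (6.7%) and 668 in females (4.97%). Without 1 array at a time the count was 690 to 2117, the lowest without the wild-type female control array and the highest without the Twist1+/- male control array. The groups below are lists of genes by role. No list held a gene past the threshold for genotype, and over all genes the median difference was 0.03 in males and -0.01 in females.

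Extracellular matrix genes were on average higher in the male and lower in the female comparison. Of the 38 matrix glycoproteins and proteoglycans measured (38 of 42 listed), 22 were higher in males and lower in females in both media (13.8% of all genes were), 4 were higher in all 4 comparisons and 0 lower in all (6.98% and 6.77% of all genes). The male and female differences differed past the threshold for 26 with the higher value in males (6.7% of all genes) and 1 with the higher value in females (4.97%). The list's median difference was 0.69 in males and -0.15 in females. Postn, a matricellular protein of periosteum and sutures, measured 11.15 and 11.35 in the Twist1+/- male culture and 10.49 and 10.37 in the Twist1+/- female culture, against 9.12 and 9.25 in the wild-type male culture and 11.05 and 11.13 in the wild-type female culture. Its male minus female gap of 2.73 (SE 0.14) had an adjusted p of 2.61e-06 (limma). Vcan, the large proteoglycan versican, measured 8.43 and 8.78 in the Twist1+/- male culture and 8.35 and 8.51 in the Twist1+/- female culture, against 6.99 and 6.84 in the wild-type male culture and 8.43 and 8.67 in the wild-type female culture. Its wild-type male arrays were the lowest and the other 6 overlapped. Fbln2, an elastic fibre protein, differed by 1.01 in males and 0.06 in females.

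Collagens followed the same order. Of 27 collagen genes measured (31 listed) 9 were higher in males and lower in females in both media, beside 13.8% of all genes, and 0 ran the other way. A male difference above the female one past the threshold was found for 11, beside 6.7% of all genes. The list's median difference was 0.44 in males and -0.01 in females. Col3a1, the main partner of type I collagen in soft tissue, measured 10.61 and 10.91 in the Twist1+/- male culture and 10.69 and 10.67 in the Twist1+/- female culture, against 9.03 and 9.15 in the wild-type male culture and 10.63 and 10.74 in the wild-type female culture. Among the other 3 cultures its levels spanned 10.61 to 10.91, and both wild-type male arrays lay below that range. Col1a2 and Col5a2 had differences of 1.18 and 1.36 in males and 0.0 and 0.0 in females. Col1a1 measured 12.67 and 12.93 in the Twist1+/- male culture and 12.75 and 12.69 in the Twist1+/- female culture, against 11.81 and 11.79 in the wild-type male culture and 12.79 and 12.72 in the wild-type female culture.

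Tendon and fibrous joint genes, 15 of 18 measured, had a median difference of 0.80 in males and -0.33 in females, and 10 of them were higher in males and lower in females in both media, beside 13.8% of all genes. Matrix proteases and their inhibitors, 33 of 44 measured, had medians of 0.33 and -0.03 in the same order, with 10 opposed in that sense. In all 4 comparisons 7 of them were higher and 1 was lower, beside 6.98% and 6.77% of all genes. Adamts5, the main aggrecan-cutting protease, measured 9.10 and 9.22 in the Twist1+/- male culture and 9.55 and 9.27 in the Twist1+/- female culture, against 8.83 and 8.84 in the wild-type male culture and 9.10 and 9.0 in the wild-type female culture. It was higher in every Twist1+/- against wild-type pair of the same sex and medium, by 0.33 in males and 0.36 in females. Htra1, a secreted serine protease, differed by 0.92 in males and 0.07 in females, and Mmp2, a gelatinase, by 0.85 and 0.12. Pappa, a protease that releases insulin-like growth factors from their binding proteins, measured 8.96 and 9.41 in the Twist1+/- male culture and 9.21 and 9.12 in the Twist1+/- female culture, against 8.45 and 8.32 in the wild-type male culture and 9.0 and 8.82 in the wild-type female culture.

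Interferon-induced genes had the widest gap between the sexes of the 42 lists measured. Of 20 measured genes (27 listed) 15 were higher in males and lower in females in both media, beside 13.8% of all genes, and 0 ran the other way. The differences of 14 differed between the sexes past the threshold, all with the higher value in males, beside 6.7% of all genes. The list's median difference was 1.31 in males and -0.73 in females. Ifit1, an antiviral protein that binds foreign RNA caps, measured 9.11 and 8.99 in the Twist1+/- male culture and 8.61 and 8.23 in the Twist1+/- female culture, against 5.07 and 5.70 in the wild-type male culture and 9.45 and 9.40 in the wild-type female culture. The wild-type female arrays were the highest and the wild-type male arrays the lowest, with both Twist1+/- cultures between them. The gap between the sexes was 4.67 (SE 0.26, adjusted p 4.44e-06, limma). Bst2, or tetherin, measured 9.52 and 9.25 in the Twist1+/- male culture and 8.63 and 8.61 in the Twist1+/- female culture, against 8.87 and 9.10 in the wild-type male culture and 9.77 and 9.78 in the wild-type female culture, and differed by 0.40 in males and -1.16 in females. Oas3, a sensor enzyme for double-stranded RNA, was an exception: it was lower on every Twist1+/- array, with 5.14 and 5.09 in the Twist1+/- male culture and 4.92 and 4.85 in the Twist1+/- female culture, against 5.45 and 5.43 in the wild-type male culture and 5.18 and 5.31 in the wild-type female culture.

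Macrophage markers were lower in Twist1+/- cells in both sexes. Of the 20 markers, 17 were lower in all 4 comparisons (6.77% of all genes were), 0 were higher in all, and 1 had no overlap between the genotypes (2.92% of all genes). The median difference was -1.01 in males and -0.33 in females. The mean level of the 20 genes was 8.41 and 8.07 in the Twist1+/- male culture and 7.58 and 7.73 in the Twist1+/- female culture, against 9.32 and 9.39 in the wild-type male culture and 8.02 and 8.09 in the wild-type female culture. Fewer macrophages and less RNA of these genes per macrophage cannot be told apart in such bulk samples. Adgre1, a surface receptor widely used to identify mouse macrophages, measured 8.32 and 8.04 in the Twist1+/- male culture and 7.27 and 7.57 in the Twist1+/- female culture, against 9.94 and 9.82 in the wild-type male culture and 7.83 and 7.80 in the wild-type female culture. Csf1r, the receptor that macrophages need to survive, measured 9.18 and 8.90 in the Twist1+/- male culture and 8.43 and 8.64 in the Twist1+/- female culture, against 10.38 and 10.28 in the wild-type male culture and 8.86 and 8.81 in the wild-type female culture. Cd68 measured 10.0 and 9.41 in the Twist1+/- male culture and 9.05 and 9.19 in the Twist1+/- female culture, against 11.34 and 11.26 in the wild-type male culture and 9.33 and 9.46 in the wild-type female culture. For all 3 genes the wild-type male arrays were the highest, and the Twist1+/- male arrays overlapped with or lay above the wild-type female arrays. Fcgr1, a receptor for immunoglobulin G, had differences of -0.94 in males and -1.04 in females, and Fcer1g, the signalling chain of Fc receptors, of -1.28 in males and -0.63 in females. Their part in the other results was not tested.

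Other immune genes differed less evenly. Of 16 complement genes measured (20 listed) 7 were lower and 0 higher in all 4 comparisons, beside 6.77% and 6.98% of all genes. Another 5 were higher in males and lower in females in both media, and 1 ran the other way, beside 13.8% and 9.98% of all genes. The list's median difference was 0.024, at -0.105 in males and -0.33 in females. C1qa and C1qb, chains of the first complement component that macrophages make, differed by -1.04 and -0.88 in males and -0.71 and -0.58 in females. C3ar1, a receptor for a complement fragment, differed by -1.86 in males and -0.40 in females. Of 27 cytokines and chemokines measured (32 listed) 4 were lower in all 4 comparisons, among them Tnf with differences of -1.28 in males and -0.41 in females and Cxcl16 with -1.13 in males and -0.40 in females. None of the list was higher in all 4. In both media 9 were higher in males and lower in females, and 5 ran the other way. The cytokine list had a median difference of 0.088, at 0.205 in males and -0.16 in females. Cxcl5, a neutrophil attractant made by stromal cells, measured 7.38 and 7.27 in the Twist1+/- male culture and 6.91 and 6.82 in the Twist1+/- female culture, against 5.51 and 6.13 in the wild-type male culture and 6.42 and 6.86 in the wild-type female culture.

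**Figure D3:**
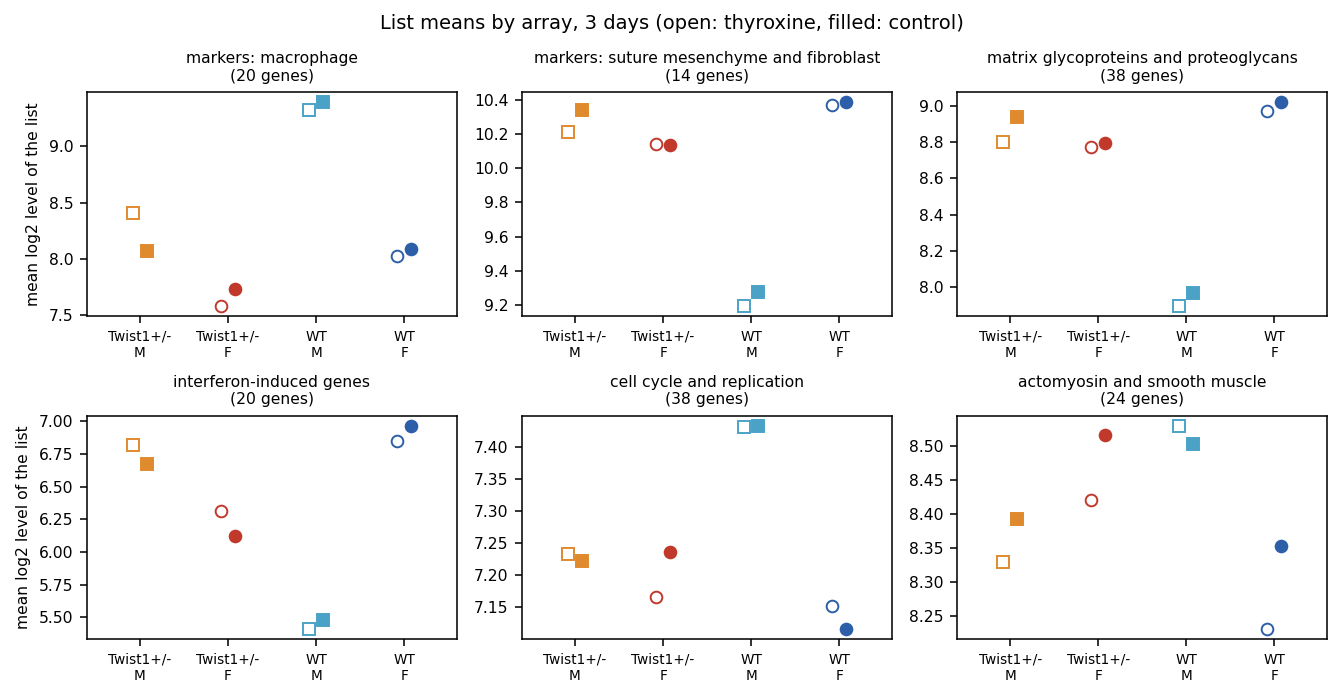
Each panel plots the mean log2 level of 1 gene list (y axis) on the 8 arrays at 3 days, with 1 position per culture, M for male and F for female, open symbols for thyroxine and filled symbols for control medium. In the macrophage panel the wild-type male arrays are the highest and the Twist1+/- female arrays the lowest, and in the mesenchyme, matrix and interferon panels the wild-type male arrays are the lowest of all.

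Signalling genes that act with Twist1 in the suture gave small and mixed differences. Over all genes 6.98% were higher and 6.77% lower in all 4 comparisons, and the counts of these short lists are to be read against those shares. Of 18 helix-loop-helix genes (19 listed), 2 were higher and 2 lower in all 4 comparisons. Id2, an inhibitor that binds E proteins, measured 8.28 and 8.09 in the Twist1+/- male culture and 8.14 and 8.01 in the Twist1+/- female culture, against 9.11 and 9.05 in the wild-type male culture and 8.36 and 8.13 in the wild-type female culture, and Bhlhe41, a repressor linked to the clock, differed by -0.80 in males and -0.54 in females. Of 30 suture and skull patterning factors measured (38 listed) 5 were higher and 0 lower in all 4 comparisons, and 2 did not overlap (2.92% of all genes), Alx1 and Barx1. En1, a homeobox factor that sets the position of the coronal suture, differed by 0.60 in males and 0.13 in females. Msx2, a homeobox factor of the growing skull bones, measured 6.80 and 6.46 in the Twist1+/- male culture and 7.30 and 7.29 in the Twist1+/- female culture, against 7.36 and 7.15 in the wild-type male culture and 6.82 and 6.81 in the wild-type female culture. It ran opposite ways, with -0.63 in males and 0.48 in females and an adjusted p of 0.00193 for that gap (limma).

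The 21 genes of FGF receptors and feedback measured (24 listed) had a median difference of -0.25 in males and 0.04 in females, with 1 higher and 4 lower in all 4 comparisons. Dusp6, a phosphatase that FGF signalling induces, measured 7.95 and 7.91 in the Twist1+/- male culture and 7.93 and 7.85 in the Twist1+/- female culture, against 8.67 and 8.63 in the wild-type male culture and 7.86 and 7.82 in the wild-type female culture, with the wild-type male arrays above the other 6. The ligand Fgf7 differed by 1.03 in males and -0.06 in females. Among 30 BMP genes measured (34 listed) 5 were higher and 1 lower in all 4 comparisons, with Bmp5, a ligand, at 4.66 and 4.61 in the Twist1+/- male culture and 4.71 and 4.34 in the Twist1+/- female culture, against 4.23 and 3.87 in the wild-type male culture and 4.07 and 4.21 in the wild-type female culture. Grem1, a secreted BMP antagonist, differed by 1.05 in males and 0.04 in females. Among 23 genes of TGF-beta signalling (25 listed) 2 were higher and 3 lower in all 4. Eng, a co-receptor, was higher on every Twist1+/- array, with 9.66 and 9.65 in the Twist1+/- male culture and 9.67 and 9.76 in the Twist1+/- female culture, against 9.39 and 9.44 in the wild-type male culture and 9.43 and 9.43 in the wild-type female culture, a difference of 0.26. Tgfbi, a secreted TGF-beta target, was lower on every Twist1+/- array, with 8.97 and 8.95 in the Twist1+/- male culture and 8.46 and 8.49 in the Twist1+/- female culture, against 9.25 and 9.36 in the wild-type male culture and 9.03 and 9.06 in the wild-type female culture, a difference of -0.46.

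WNT genes had a median difference of 0.26 in males and -0.01 in females over 37 genes (42 listed), and 10 of them were higher in males and lower in females in both media, beside 13.8% of all genes. Sfrp1, a secreted WNT inhibitor, measured 7.74 and 7.53 in the Twist1+/- male culture and 8.32 and 8.33 in the Twist1+/- female culture, against 5.57 and 5.92 in the wild-type male culture and 7.69 and 7.47 in the wild-type female culture. Its difference was 1.89 in males and 0.75 in females, and the Twist1+/- male arrays overlapped with the wild-type female ones. The inhibitors Dkk2 and Dkk3 differed by 1.66 and 1.5 in males and -0.22 and -0.14 in females. Of 16 ephrins and Eph receptors measured (19 listed) 1 was higher and 0 lower in all 4 comparisons, beside 6.98% and 6.77% of all genes. Efnb1, the X-linked ephrin whose loss causes craniofrontonasal syndrome in people, measured 7.44 and 7.46 in the Twist1+/- male culture and 7.23 and 7.66 in the Twist1+/- female culture, against 7.07 and 7.32 in the wild-type male culture and 7.47 and 7.39 in the wild-type female culture, without a clear order. Epha1 was higher on every Twist1+/- array, with 6.50 and 6.70 in the Twist1+/- male culture and 6.52 and 6.57 in the Twist1+/- female culture, against 5.76 and 6.28 in the wild-type male culture and 6.36 and 6.19 in the wild-type female culture. Of 26 semaphorin genes (27 listed) 4 were higher and 4 lower in all 4 comparisons. Sema4d, a semaphorin of immune cells and osteoclasts that restrains osteoblasts, differed by -1.22 in males and -0.53 in females. Sema3d, a secreted semaphorin, measured 4.08 and 4.03 in the Twist1+/- male culture and 4.95 and 4.98 in the Twist1+/- female culture, against 3.35 and 3.49 in the wild-type male culture and 4.78 and 4.77 in the wild-type female culture, and the ranges overlapped. Plxna4, a semaphorin receptor, measured 5.02 and 5.21 in the Twist1+/- male culture and 5.14 and 5.09 in the Twist1+/- female culture, against 4.98 and 4.47 in the wild-type male culture and 4.64 and 4.60 in the wild-type female culture. In the insulin-like growth factor list, 4 of 18 genes measured (21 listed) were higher and 1 lower in all 4 comparisons, and Igf1 itself differed by -0.90 in males and -0.29 in females.

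Of 28 listed osteoblast lineage genes only 14 were measured above the filter on low levels. Of these 1 was higher and 1 lower in all 4 comparisons, beside 6.98% and 6.77% of all genes, and 0 were without overlap, beside 2.92%, which in a list this short is close to the background. Alpl, the alkaline phosphatase of mineralizing cells, measured 5.72 and 5.84 in the Twist1+/- male culture and 5.39 and 5.43 in the Twist1+/- female culture, against 4.69 and 5.12 in the wild-type male culture and 5.69 and 5.73 in the wild-type female culture. It differed by 0.88 in males and -0.30 in females. Runx2 was not analysed here. Of 15 genes of citrate and phosphate handling measured (20 listed), 2 were higher and 1 lower in all 4 comparisons, with Slc13a5 the gene of the smallest p. Of 11 cartilage genes measured (22 listed) 1 was higher and 0 lower in all 4. That gene was Sox6, a transcription factor of chondrocytes, with 5.47 and 5.52 in the Twist1+/- male culture and 5.62 and 5.42 in the Twist1+/- female culture, against 5.12 and 5.04 in the wild-type male culture and 5.02 and 4.98 in the wild-type female culture. Its difference of 0.47 (SE 0.13, unadjusted p 0.00483, limma) was 0.42 in males and 0.52 in females.

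The medians of contractile and of cell cycle genes had the signs of the matrix genes turned round. Neither Lmod1 nor Pcna, given below, was opposed between the sexes in both media. Of 24 actomyosin and smooth muscle genes 12 were lower in males and higher in females in both media, beside 9.98% of all genes, and 1 ran the other way, with median differences of -0.16 in males and 0.17 in females. Lmod1, which starts actin filaments in smooth muscle, was higher on every Twist1+/- array, with 6.93 and 6.92 in the Twist1+/- male culture and 6.86 and 7.20 in the Twist1+/- female culture, against 6.74 and 6.63 in the wild-type male culture and 6.48 and 6.73 in the wild-type female culture. Of 38 cell cycle genes (40 listed) 15 were lower in males and higher in females in both media and 3 ran the other way, with medians of -0.28 in males and 0.07 in females. Pcna, the sliding clamp of DNA replication, measured 8.85 and 8.96 in the Twist1+/- male culture and 8.86 and 8.77 in the Twist1+/- female culture, against 9.36 and 9.45 in the wild-type male culture and 8.80 and 8.87 in the wild-type female culture. Ncam1, an adhesion molecule of mesenchymal condensations, was higher on every Twist1+/- array at a high level, with 10.86 to 11.09 on the Twist1+/- arrays, against 10.52 to 10.74 on the wild-type arrays. Its difference of 0.37 was 0.45 in males and 0.29 in females. Of 23 genes of amino acid and unfolded protein stress (25 listed) 11 were higher in males and lower in females in both media, beside 13.8% of all genes. Ddit3, a transcription factor that such stress induces, measured 7.51 and 7.78 in the Twist1+/- male culture and 7.38 and 7.25 in the Twist1+/- female culture, against 6.29 and 6.28 in the wild-type male culture and 7.21 and 7.50 in the wild-type female culture.

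**Figure D4:**
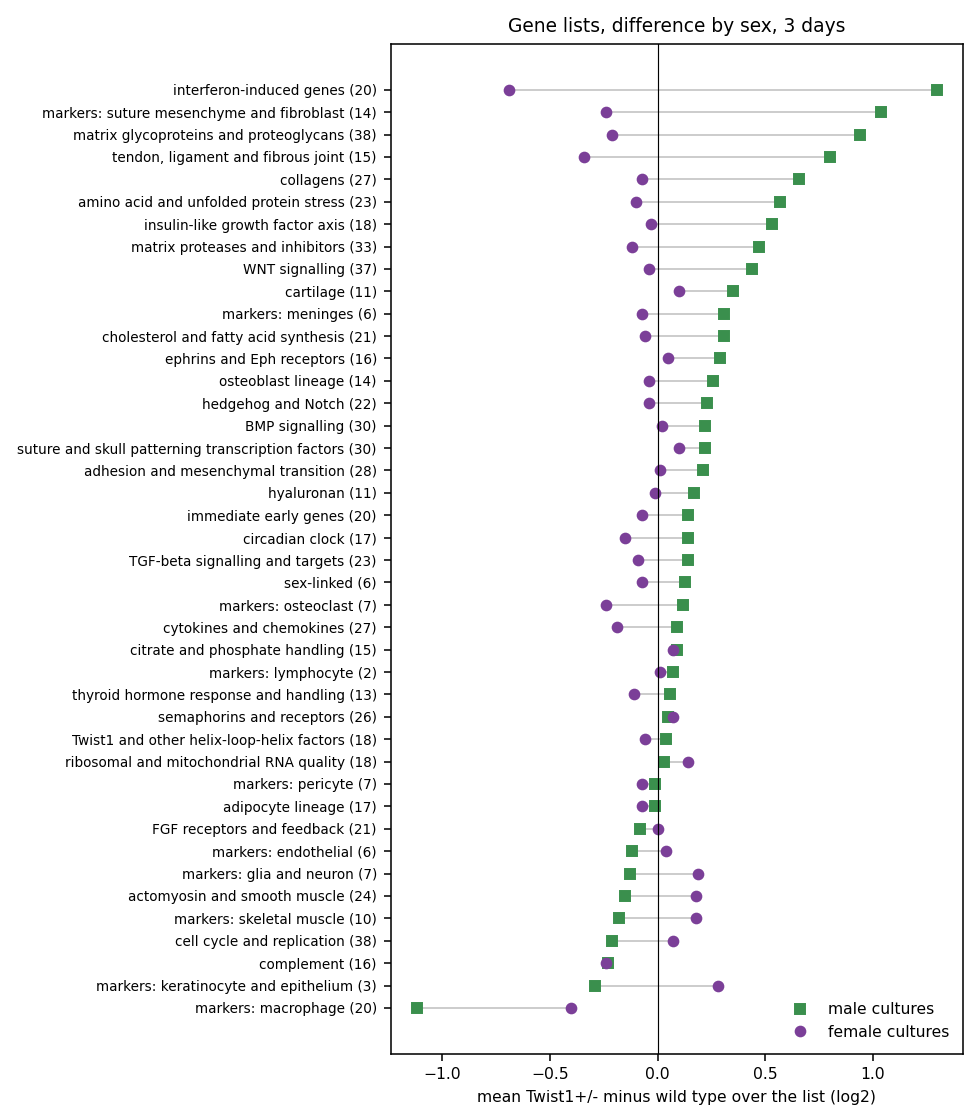
For each of 42 gene lists, with the number of genes measured in brackets, the mean Twist1+/- minus wild-type difference (x axis, log2) is a green square for the male and a purple circle for the female cultures. Interferon, mesenchyme, matrix and tendon lists lie right of 0 in males and left of 0 in females, cell cycle and actomyosin lists lie the other way round, and macrophage markers lie left of 0 in both.

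Markers of other cell types had lower mean levels than those of macrophages and of suture mesenchyme on every array. Of lymphocyte markers 2 of 10 were measured, with means of 4.05 to 4.41 over the arrays, near the lowest mean tested, 3.90. Endothelial markers, 6 of 11 measured, had means of 5.33 to 5.57, glial and neuronal markers, 7 of 12 measured, of 5.24 to 5.66, and epithelial markers, 3 of 10 measured, of 5.1 to 5.57. Pericyte markers, 7 of 8 measured, had means of 5.79 to 6.2, osteoclast markers, 7 of 11 measured, of 5.66 to 6.02, and markers of meninges, 6 of 7 measured, of 4.91 to 5.64. Skeletal muscle markers, 10 of 13 measured, had means of 4.71 and 4.87 in the Twist1+/- male culture and 4.96 and 5.03 in the Twist1+/- female culture, against 4.99 and 4.95 in the wild-type male culture and 4.85 and 4.77 in the wild-type female culture. The 14 markers of suture mesenchyme and fibroblasts had means of 10.21 and 10.34 and 10.14 and 10.14 in the Twist1+/- male and female cultures, against 9.20 and 9.28 and 10.37 and 10.38 in the wild-type male and female cultures. The wild-type male culture thus combined the highest macrophage and the lowest mesenchymal means, and the part of either in the gene differences was not tested.

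The medium did not alter the genotype difference detectably. Of 13453 genes 0 (0.0%) passed the test of genotype by medium, 570 had an unadjusted p under 0.05 (4.24%), and the smallest adjusted p was 0.478 (limma). Across genes the differences in thyroxine and control medium had a Pearson r of 0.58 in males, with 62.4% of genes of the same sign, and of 0.38 in females, with 58.0%. Each pair of differences shares its cultures. For Twist2 the difference in thyroxine minus that in control medium was -0.60 (unadjusted p 0.0537), and for Slc13a5 it was 0.14 (p 0.541).

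The 3 day differences were set beside those of the same cultures at 7 days. No gene passed the test of genotype by day (0 of 13453, 0.0%), 1219 had an unadjusted p under 0.05 (9.06%), and the smallest adjusted p was 0.298 (limma). Of the 393 genes without overlap at 3 days, 29 were without overlap in the same direction at 7 days (7.38%), and 135 had the same sign in both sexes at 7 days (34.4%). At 7 days 699 of all genes had no overlap in either direction (5.2%), while the 7.38% counts for each gene 1 direction only. For the 34.4% the share over all genes was not worked out. Slc13a5 was in both sets: at 7 days it ranged over 7.86 to 8.29 in Twist1+/- arrays, against 6.09 to 7.09 in wild-type arrays, and its difference was 1.11 in males and 1.93 in females. Alx1 was also in both, with 7 day differences of 0.35 in males and 0.80 in females, and so were Arhgap28 and Bmp5. Twist2 had the other sign at 7 days, with -0.50 in males and -0.38 in females, and the 3 minus 7 day gap of 1.11 had an unadjusted p of 0.000178. Gsap likewise differed by 0.25 in males and 0.38 in females at 7 days, and Malat1 by 0.155 in males and 0.095 in females. Each of the 11 lower genes named for not overlapping at 3 days overlapped at 7 days. The macrophage gene Adgre1 overlapped between the genotypes at both times. At 3 days it ranged over 7.27 to 8.32 in Twist1+/- arrays, against 7.80 to 9.94 in wild-type arrays. At 7 days it ranged over 9.27 to 9.90 in Twist1+/- arrays, against 9.51 to 10.22 in wild-type arrays. Igfbp5 and Ifit1 were again lowest in wild-type male cells at the later time, with male differences of 3.59 and 2.56.

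**Figure D5:**
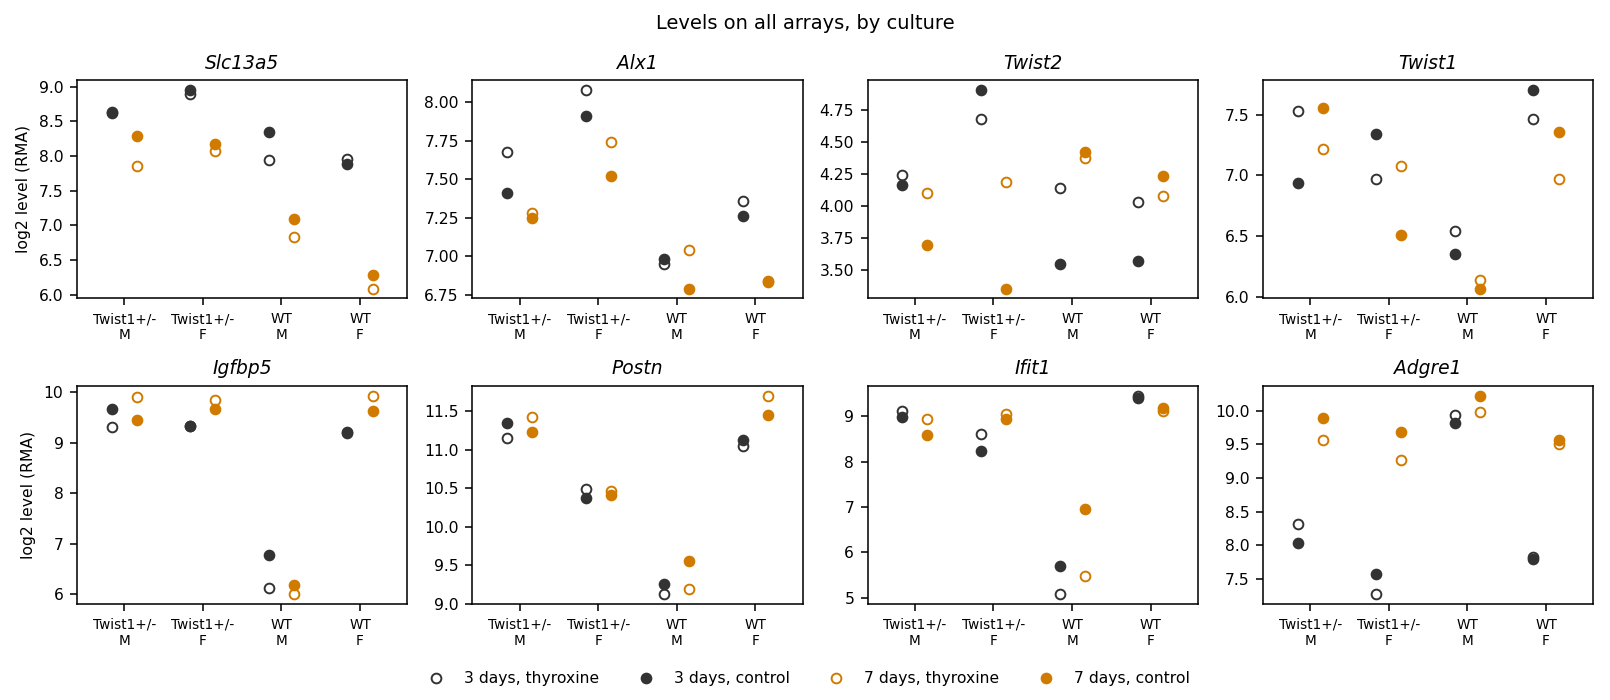
Log2 level (y axis) of 8 genes on all 16 arrays by culture, M for male and F for female, with 3 day arrays in black and 7 day arrays in orange, open for thyroxine and filled for control medium. Slc13a5 and Alx1 are higher in both Twist1+/- cultures on both days, Twist2 is higher in both at 3 days and overlaps at 7 days, and Igfbp5, Postn and Ifit1 are lowest in the wild-type male culture on both days.

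Without the wild-type male culture, a step added after the values were seen, the 4 Twist1+/- arrays were set against the 2 wild-type female arrays. They lay above both for 1018 genes (7.57%) and below both for 1078 (8.01%), shares that cannot be set against those of 4 arrays against 4, since fewer arrays lie apart more easily. The fit called 1 gene at an adjusted p under 0.05 (0.00743%). That gene was Snora44, a small nucleolar RNA of a class the naming rule left out, which measured 9.24 and 9.12 in the Twist1+/- male culture and 8.96 and 8.73 in the Twist1+/- female culture, against 8.34 and 8.18 in the wild-type male culture and 7.31 and 7.41 in the wild-type female culture (adjusted p 0.013, limma). Slc13a5 differed by 0.85 in this comparison, Alx1 by 0.46, Pop1 by 0.68, Pmp22 by -0.52 and Gsap by -0.68. Igfbp5 differed by 0.21 and Malat1 by -0.33. Of the 81 genes named in the text 13 had the other sign there, among them Twist1 with -0.39, Postn with -0.25 and Ifit1 with -0.69. The median difference of macrophage markers was -0.09, with 13 of 20 lower and 7 higher. Matrix glycoproteins had a median of -0.11 with 28 of 38 lower, and interferon-induced genes had -0.47 with 18 of 20 lower, so both had the sign of the female comparison there. This comparison sets cells of both sexes against female cells alone, so sex is unbalanced between the genotypes. The sex-linked Xist differed by -1.77 and Uty by 1.84 in it. These wild-type values also rest on 1 culture, so the genotype, sex and that culture cannot be told apart. The same holds where the wild-type female culture was left out in its place: 2520 genes (18.7%) then had an adjusted p under 0.05, or 842 (6.26%) with the within-culture correlation held at its value over all 8 arrays.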

How the data were processed

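Each array came as deposited log2 values for its probe sets. The submitters' processing notes name RMA and Affymetrix Expression Console as what the authors used. Because RMA equalizes the distributions of arrays, a shift shared by all genes would not be seen. Versions, build and annotation release were not in the sources used here.

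Of 41345 probe sets, 23521 had 1 gene symbol in the platform annotation, 1814 had several and 16010 none. Entrez identifiers matched 23328 to current symbols, of which 0 changed. The brightest probe set over all 16 arrays stood for each of 22180 genes, and a gene was tested where its mean reached 3.905 (the percentile at 40 among named sets). That kept 13453 genes and dropped 8727. Array medians ran from 3.73 to 3.86.

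Genotype was tested in limma 3.58.1 (R 4.3.3) on the 8 arrays at 3 days with genotype and medium as factors, culture as a random block (statmod 1.5.0, within-culture correlation 0.37), an intensity trend and two-sided Benjamini-Hochberg adjustment at 0.05. Media arrays of a culture share cells, so the culture is the replicate. With 1 culture per genotype and sex, the p-values do not cover the variation among mice. Interactions with medium used the same arrays and block, and that with day used all 16 arrays. The fit was tested on simulated data in which cultures differed by less than the arrays of a culture. No culture was made to stand apart there as the wild-type male culture does here, so that case was not tested. Replicate 1 of each group is female and replicate 2 male. These numbers follow accession order. Within a genotype the same number marks the same culture in both media and on both days, and between genotypes it marks only the sex.

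The members, gene lists and naming rule were chosen with earlier results of these data known, so no list is independent evidence. Named genes were the non-overlapping genes with a difference of at least 0.5 and a mean of at least 5, up to 12 a direction by p without gene models and small RNAs, up to 4 genes a list by p, and fixed sets of suture and marker genes. With the few chosen after their values were seen these made 183 genes, of which the text prints 81. Which list genes to print was chosen with their values known. Lists are described by counts and medians, with no set test. Alternatives covered the block, sex as a block, the filter, probe-set averaging, renormalization, each medium, and each array or culture left out. Promoter windows are from RefSeq (GRCm38.p6).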

Additional observations from a re-analysis of the deposited data

Results flagged for a closer look

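For 2 of the 81 genes named in the text, 1 Twist1+/- array lay far from the other 3 by Dixon's test, which sets the gap of an extreme value against the group's range. Chance gives such a gap in about 1 in 20 groups, and 162 groups of 4 arrays were tested. Apol9b measured 6.3 on the Twist1+/- male thyroxine array and 5.72 to 5.78 on the other Twist1+/- arrays. Igfbp5 measured 9.67 on the Twist1+/- male control array and 9.31 to 9.33 on the other Twist1+/- arrays.

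For 41 of the 81 genes named in the text the genotype difference differed between the sexes (adjusted p under 0.05, limma). Of all 183 genes that the naming rule or a later choice gave, 83 did so, and the others of these are not described. Over all genes the share was 11.7%. Which list genes to print was chosen with their values known, so these counts are no result about the named genes. Values below are the male minus the female difference on the log2 scale. As each sex of a genotype is 1 culture, these gaps cannot be told apart from differences between cultures. Of the non-overlapping genes, the gap was 1.11 for Avil, 0.53 for Creb3l1, 1.01 for Arhgap28, 1.2 for Cth, 1.29 for Apol9b, 2.92 for Igfbp5, -0.57 for Ddx5, -1.56 for Malat1, -0.87 for Mfsd6 and -0.57 for Snora44. It was 1.22 for Twist1, 0.53 for Tcf12, -1.11 for Msx2, -0.73 for Id2 and 1.18 for Alpl. Matrix genes had gaps of 1.04 for Col1a1, 1.18 for Col1a2, 1.68 for Col3a1, 1.36 for Col5a2, 2.73 for Postn, 1.81 for Vcan, 0.96 for Fbln2, 0.73 for Mmp2 and 0.85 for Htra1. Macrophage and complement genes had gaps of -0.99 for Csf1r, -1.31 for Adgre1, -1.32 for Cd68 and -1.47 for C3ar1. Among signalling genes the gap was 1.02 for Grem1, 1.15 for Sfrp1, 1.64 for Dkk3, 1.88 for Dkk2, -0.7 for Sema4d, -0.61 for Igf1, 1.09 for Fgf7 and -0.77 for Dusp6. It was -0.48 for Pcna, 4.67 for Ifit1, 1.56 for Bst2, 1.28 for Cxcl5 and 1.4 for Ddit3.

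The mean difference of 22 of 42 lists had opposite signs in the sexes in both media, and that difference between the sexes was not tested for lists. In 16 lists it was higher in males: by 0.23 for TGF-beta signalling, 0.56 for the insulin-like growth factor axis, 0.3 for the osteoblast lineage, 1.14 for tendon and fibrous joint genes, 0.73 for collagens, 1.15 for matrix glycoproteins, 0.59 for matrix proteases, 0.27 for hedgehog and Notch genes, 1.99 for interferon-induced genes, 0.37 for cholesterol and fatty acid synthesis, 0.67 for amino acid and unfolded protein stress, 0.17 for thyroid hormone response, 0.21 for immediate early genes, 0.2 for sex-linked genes, 0.36 for osteoclast markers and 1.28 for markers of suture mesenchyme. In 6 lists the male minus female gap was negative: -0.33 for actomyosin genes, -0.28 for cell cycle genes, -0.16 for endothelial, -0.36 for skeletal muscle, -0.32 for glial and neuronal and -0.57 for epithelial markers.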

How the results depend on the processing

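The count of 0 genes called for genotype was also 0 without a culture block, with culture means, with all 16 arrays, without the intensity trend, without or with a higher filter, with averaged probe sets, with renormalized arrays, in each medium alone and without any 1 array. With 1 culture left out at a time it ranged from 0 to 2520, and the wild-type cultures decided it: 2520 genes without the wild-type female culture (842 with the correlation held) and 1 without the wild-type male culture (1 with the correlation held). With sex as a replicate block 0 genes were called and 750 had an unadjusted p under 0.05, the smallest adjusted p being 0.173. Genotype by medium stayed at 0 calls under the alternatives run, and genotype by day at 0 except for 413 without the wild-type female culture. Genotype by sex gave 1569 calls, 1045 without the trend and 690 to 2117 with 1 array left out. Non-overlapping genes numbered 393, 634 without the filter and 2096 without the wild-type male culture, where 4 arrays are set against 2 and lie apart more easily. The 22 genes named for not overlapping kept their sign under every alternative that gave a value. They were chosen because their arrays do not overlap, so leaving out arrays or cultures could hardly change that sign. Their kept sign is therefore no measure of how firm these differences are. Another 17 named genes changed sign when a culture or an array was left out, none with a call at the other sign: 13 without the wild-type male culture and 3 without each of the other cultures, some genes in several. Their differences with 1 culture or array left out ranged over -0.385 to 0.75 for Twist1, -0.062 to 0.297 for Tcf12, -0.062 to 0.623 for Fgfr2, -0.405 to 0.26 for Msx2, -0.115 to 0.69 for Alpl, -0.265 to 1.09 for Sema3d, -1.89 to 0.018 for Cd68, -0.25 to 1.655 for Postn, -0.07 to 1.435 for Dkk3, -0.205 to 1.645 for Dkk2, -0.033 to 1.6 for Vcan, -0.74 to 0.07 for Dusp6, -0.545 to 0.025 for Pcna, -0.69 to 3.35 for Ifit1, -0.772 to 0.018 for Bst2, -1.768 to 0.907 for Xist and -1.67 to 2.135 for Uty. Lymphocyte markers have no gene at the higher filter and so no value there. Of the values of single named genes under the alternatives, 2004 kept their sign and stayed on the same side of the threshold, 121 passed it newly and 50 changed sign. Leaving out a culture or an array unbalances the sexes between the genotypes, so the sex-linked Xist and Uty shift by design. For the other genes the cause was not tested. With 1 culture left out its genotype rests on a single culture, and the spread between cultures of that genotype is not measured. On arrays, signal near background limits genes close to the filter.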
